A study of Mus musculus with 24 samples.

Results

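The NF-kB subunit and inhibitor genes were followed as a fixed list of 10 of the 23366 genes in the deposited tables. The 5 subunit genes were Nfkb1, Nfkb2, Rel, Rela and Relb, and the 5 inhibitor genes were Nfkbia, Nfkbib, Nfkbie, Nfkbiz and Tnfaip3. They are listed by name. All 10 were found in both tables and passed the low-count filter in each fit.

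RNA came from C57BL/6 mouse CD8+ T cells, isolated from spleen and lymph nodes, sorted as naive cells (CD62L high, CD44 negative) and activated by plate-bound antibodies against CD3 and against CD28. There were 8 groups of 3 libraries, 24 in all, each made from 1000 sorted cells. At day 3 both genotypes carried floxed Nr3c1, the glucocorticoid receptor gene: WT cells lacked the Cre transgene (E8i-Cre-Nr3c1fl/fl), and cKO cells had it (E8i-Cre+Nr3c1fl/fl). E8i-Cre is driven by an enhancer of the Cd8a locus that is active in mature CD8+ T cells, so the receptor is lost in these cells and not in the whole animal. Each genotype was kept for 72 hours without steroid (Ctrl) or with the synthetic glucocorticoid dexamethasone (Dex) at 10 nM. Of day 9 there were WT cells only, stimulated for 3 days, rested for 3 days with IL2 (5 ng/ml) and stimulated again for 3 days. Both stimulations were done with no addition (Ctrl), with Dex at 10 nM, with the cytokine IL27 at 25 ng/ml, or with the 2 agents together (Dex+IL27).

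NF-kB proteins are dimers built from RelA, RelB, c-Rel, p50 and p52, of which p50 and p52 are cut from the longer products of Nfkb1 and Nfkb2. In resting T cells IkB proteins hold the dimers in the cytoplasm. Signals from the T cell receptor and CD28 reach the IkB kinase (IKK) through a complex that holds BCL10 and MALT1, and IKK marks IkBs for destruction so that dimers enter the nucleus. Several inhibitors are themselves NF-kB target genes and close a feedback loop. Glucocorticoids are known to dampen NF-kB output in lymphocytes, and induction of Nfkbia is one of the routes described for this.

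Promoter sequences show which of these genes carry a kB element next to their start. RefSeq windows (GRCm38.p6) from 250 bases before to 50 after an annotated start were matched by symbol for 7 of the 10 genes, giving 10 windows. Nfkb1, Relb and Nfkbiz had no entry. The classical kB consensus was searched on both strands. It was present in 7 of the 10 windows, belonging to 5 of the 7 genes, and in 8.46% of the 32851 windows of the whole table. Nfkb2 gave 3 of these 7 windows. The windows of its starts 2 and 3 overlap and share 1 match, the only 1 in that of start 3. The share over the whole table is per window and not per gene. The last 150 bases before the start are shown for the genes whose values the results turn on, 5′ to 3′ on the gene's strand. Capitals mark bases covered by a kB match on either strand, and overlapping matches share letters.

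Nfkbia: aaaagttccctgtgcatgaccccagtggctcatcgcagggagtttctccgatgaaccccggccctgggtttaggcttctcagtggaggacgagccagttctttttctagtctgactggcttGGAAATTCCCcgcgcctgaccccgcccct
Tnfaip3: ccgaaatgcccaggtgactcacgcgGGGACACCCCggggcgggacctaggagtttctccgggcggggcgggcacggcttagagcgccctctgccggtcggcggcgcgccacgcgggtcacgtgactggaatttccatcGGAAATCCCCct
Nfkbie: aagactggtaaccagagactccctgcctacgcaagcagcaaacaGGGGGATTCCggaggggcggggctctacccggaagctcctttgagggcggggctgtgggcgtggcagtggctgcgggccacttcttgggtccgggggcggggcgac
Nfkb2: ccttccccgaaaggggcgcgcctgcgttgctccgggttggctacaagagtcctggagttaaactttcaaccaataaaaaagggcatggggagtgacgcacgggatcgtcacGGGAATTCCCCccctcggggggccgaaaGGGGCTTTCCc
Rel: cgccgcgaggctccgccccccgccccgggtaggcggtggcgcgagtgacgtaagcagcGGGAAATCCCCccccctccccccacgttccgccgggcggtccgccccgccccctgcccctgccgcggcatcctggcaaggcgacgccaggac
Nfkbib: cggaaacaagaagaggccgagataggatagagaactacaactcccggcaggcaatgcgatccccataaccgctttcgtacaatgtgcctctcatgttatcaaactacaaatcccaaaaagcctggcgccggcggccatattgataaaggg

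These stretches lie at chr12:55492648-55492797 on the minus strand for Nfkbia, chr10:19015411-19015560 on the minus strand for Tnfaip3, chr17:45555550-45555699 on the plus strand for Nfkbie, chr19:46304587-46304736 on the plus strand for Nfkb2, chr11:23770970-23771119 on the minus strand for Rel, and chr7:28766645-28766794 on the minus strand for Nfkbib. Nfkbia held 1 match, whose first base lay 29 bases before the start. Tnfaip3 held matches at 2 places, 125 and 12 bases before the start shown. A second Tnfaip3 start had none. In Nfkb2, which has 3 annotated starts, the stretch shown held matches at 2 places, 39 and 11 bases before the start. Rel held 1 place, 92 bases before the start, and Nfkbie 1 place, 106 bases before it. Nfkbib, shown for contrast, and Rela held none in their windows. The glucocorticoid receptor element was searched as AGAACA and TGTTCT spaced by 3 bases, with at most 1 mismatch in the 12 fixed letters. It was in none of the 10 windows and in 0.164% of all windows. These matches describe letters in short windows and do not show binding.

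Library totals of estimated counts ranged from 14221883 to 19018440. Levels are given as CPM (counts scaled to a common library total, with TMM factors) for 1 gene across libraries, and as FPKM, which also divides by transcript length, where genes are compared with each other. Changes are log2 fold changes ± SE from the quasi-likelihood test of edgeR, and a gene "passed" at a Benjamini-Hochberg adjusted p under 0.05. Nr3c1 itself was at 14.9 to 21.4 CPM in WT libraries of day 3 and at 5.32 to 8.20 CPM in cKO libraries. The share of these remaining reads that came from outside the deleted part was not tested. Tsc22d3, a classical glucocorticoid target, rose in WT cells with Dex at day 3 (1.73 ± 0.11 log2). It was at 170.4 to 203 CPM in those libraries and at 53.4 to 64.9 CPM in WT Ctrl. In cKO libraries it was at 49.6 to 58.96 CPM in Ctrl and 55.4 to 75.1 CPM with Dex, overlapping ranges. Of the other receptor checks, Fkbp5 was there at 19.4 to 22.5 and 22.8 to 26.5 CPM. Per1 was at 32.7 to 38.2 and 38.9 to 46.8 CPM. Their rises were 0.25 ± 0.10 and 0.29 ± 0.08 log2, against 1.09 and 0.504 in WT cells. Each of these genes had an unadjusted p under 0.05 with Dex in cKO cells (edgeR), and none passed. The source of these rises was not tested. All 7 CD8 T cell markers were high in each group (summed 1908 to 2848 CPM per library). Of the other cell types, Pax5, Pf4 and Ppbp were at 0 in all 24 libraries and Ms4a1, Lyz2 and Ncr1 were at 0 in 22. The listed markers of other types that reached 1 CPM in a group mean were Cd4, Foxp3, Zbtb7b, Cd79b, Itgam, Flt3, Zbtb46, Eomes and Hbb-b1. The highest of these group means was 19.8 CPM, of Cd79b.

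At the level of single genes Nfkbia was the most abundant of the 10 in each group, at 194 ± 8.7 FPKM in WT Ctrl cells of day 3 and 131 ± 9.1 FPKM in Ctrl cells of day 9 (SD, n = 3). Among subunits Nfkb2 led with 93.2 ± 2.4 FPKM in WT Ctrl at day 3, against 35.5 ± 0.14 for Relb, 33.6 ± 0.52 for Nfkb1, 33.5 ± 2.2 for Rel and 20.9 ± 0.81 for Rela. At day 9 the Ctrl cells had 57.2 ± 0.98 FPKM of Nfkb2, 22.3 ± 0.75 of Nfkb1, 18.4 ± 1.2 of Rela, 16.8 ± 0.95 of Relb and 12.7 ± 0.92 of Rel. Nfkbiz was the lowest of the inhibitors in all 8 group means, between 3.97 and 14.6 FPKM. Over the 24 libraries the widest range belonged to Nfkbiz, whose highest CPM was 5.91 times its lowest, followed by Rel with 4.46 times. The narrowest belonged to Nfkbie with 1.78 times and Nfkbia with 1.85 times. Day 3 and day 9 were not tested against each other, since culture history differs with the day. So does the letter that opens the sample titles, D at day 3 and E at day 9, whose meaning the labels do not give.

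**Figure D1:**
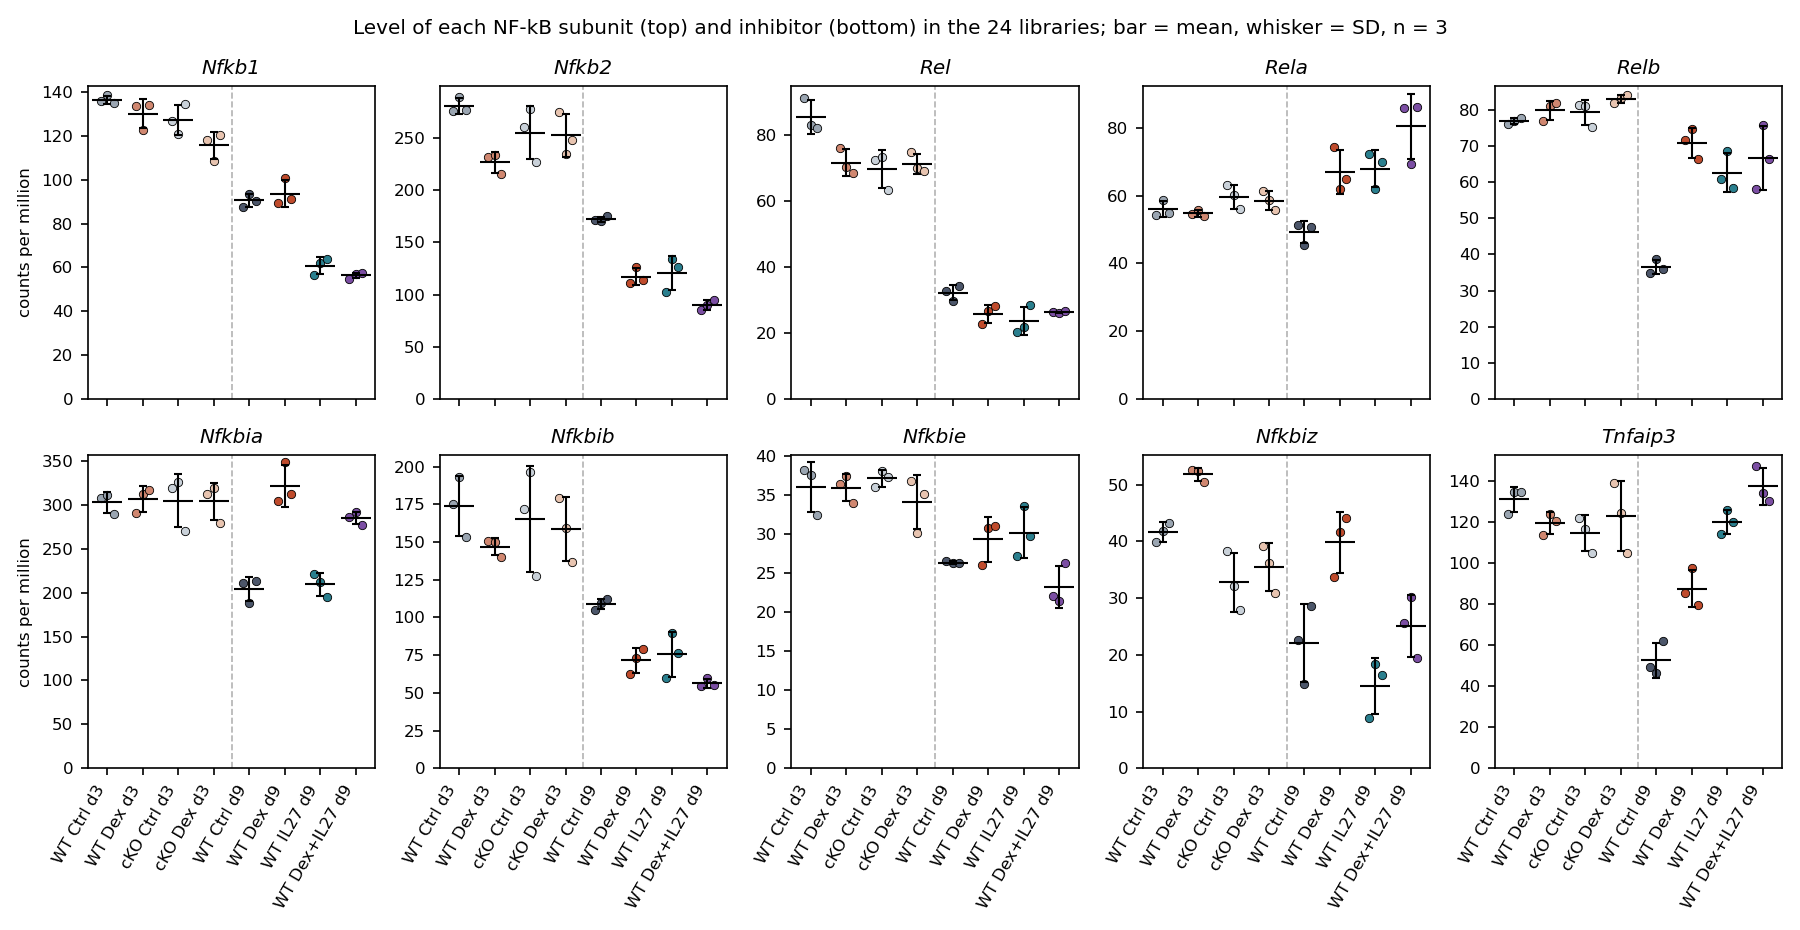
CPM (linear axis from 0) of each of the 10 genes in every library, grouped by genotype, treatment and day (d3, d9), with the group mean and SD (n = 3); the dashed line separates day 3 from day 9. Relb and Tnfaip3 were lowest in the 3 Ctrl libraries of day 9 (34.9 to 38.8 and 46.3 to 62.3 CPM), and Nfkb2 was lowest in the 3 Dex+IL27 libraries (84.9 to 95.01 CPM).

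The first question was what the steroid did to these genes during primary activation. At day 3 Dex moved few of them in WT cells. Nfkb2 and Rel fell, no member rose, and the other 8 did not pass. Nfkb2, whose product is the p100 precursor of p52, was at 276, 289 and 277 CPM in Ctrl and at 232, 233 and 215 CPM in Dex libraries. The groups did not overlap, and the change was -0.30 ± 0.07 log2 (edgeR, adjusted p = 0.010). Rel, which encodes c-Rel, the subunit tied to Il2 transcription in T cells, was at 91.2, 82.9 and 82.1 CPM without and 76.1, 70.2 and 68.5 CPM with Dex. All 3 Dex libraries were below all 3 Ctrl libraries, with a change of -0.25 ± 0.07 log2 (edgeR, adjusted p = 0.043). Rn45s took 10.5% to 11.5% of counts in the WT Ctrl, 11.9% to 12.7% in the WT Dex, 12.5% to 13.0% in the cKO Ctrl and 11.6% to 13.2% in the cKO Dex libraries. With it left out the member counts of the 5 day 3 comparisons stayed as given. Of all 11967 genes tested at day 3, 4.93% were higher and 4.5% were lower with Dex, against 0 and 2 of the 10 members. Both calls were close to the threshold. Nfkb2 did not pass without WT Ctrl replicate 2 (adjusted p = 0.0516) or without WT Dex replicate 3 (adjusted p = 0.0634). Rel lost its call in 6 of 17 alternatives, among them the fits without WT Ctrl replicate 1 or 2 or WT Dex replicate 2 or 3.

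The inhibitors gave no call in WT cells at day 3. Nfkbia was at 308, 311 and 289 CPM without and 290.1, 313 and 317 CPM with Dex. The groups overlapped, and the 95% interval of the change ran from -0.12 to 0.17 log2. Nfkbiz, which encodes IkBζ, a nuclear IkB that can also act as a coactivator, was at 39.8, 41.9 and 43.2 CPM without and 52.7, 52.3 and 50.5 CPM with Dex. Those groups did not overlap, yet the change of 0.32 ± 0.10 log2 missed the threshold (edgeR, adjusted p = 0.0599). It passed in the fit of these 2 groups alone (adjusted p = 0.00632), with no low-count filter (0.0132), with the replicate number as a block (0.0134) and in DESeq2 (0.0363). Nfkbib, which encodes IkBβ, gave -0.24 ± 0.12 log2 without overlap of the groups (edgeR, adjusted p = 0.269). Tnfaip3, the ubiquitin-editing enzyme A20 that shuts down signalling to IKK, gave -0.13 ± 0.08 log2 (edgeR, adjusted p = 0.389).

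The cKO cells addressed whether these changes needed the receptor. None of the 10 genes passed with Dex in cKO cells, where 0% of all genes were higher and 0% lower in edgeR. At an unadjusted p under 0.05 the counts were 1 of the 10 members and 399 of 11967 genes. They also held 3 of the 4 receptor checks (Nr3c1, Tsc22d3, Fkbp5 and Per1), all but Nr3c1. With no low-count filter 26 genes passed, and with DESeq2 no member did. Nfkb2 was at 260.1, 278 and 227 CPM in cKO Ctrl and 275, 234 and 248 CPM in cKO Dex libraries, overlapping ranges. Rel was at 72.3, 73.3 and 63.1 against 74.7, 70.1 and 69.1 CPM, overlapping as well. The member with the unadjusted p under 0.05 was Nfkb1, at 127, 121 and 134 against 118, 108 and 120.4 CPM.

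The test of the difference between genotypes, a genotype by Dex interaction, also gave no member. Its backgrounds were 1.57% of genes with a more positive and 1.38% with a more negative Dex change in WT than in cKO cells. The interaction was -0.29 ± 0.10 log2 for Nfkb2 (edgeR, adjusted p = 0.142) and -0.28 ± 0.11 for Rel (0.183). So a Dex response of Nfkb2 or Rel that differed by genotype was not shown. Nfkb2 passed in this test only with no low-count filter (adjusted p = 0.0213).

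**Figure D2:**
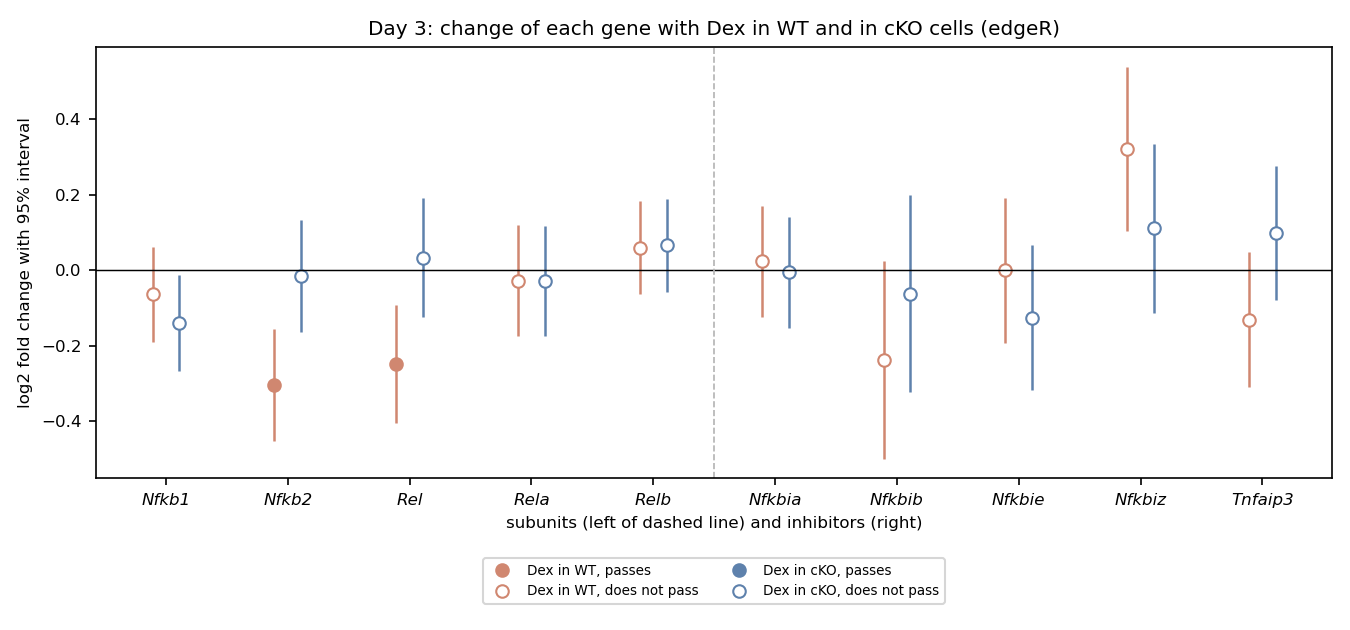
Log2 fold change with Dex at day 3 in WT cells and in cKO cells for each gene, with the 95% interval from edgeR (3 libraries per group); filled points passed the test. The filled points are Nfkb2 at -0.30 and Rel at -0.25 in WT cells; none is filled in cKO cells.

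Genotypes were also compared within each treatment. Without Dex, cKO cells had less Rel than WT cells (69.6 against 85.4 mean CPM, groups without overlap). This change of -0.29 ± 0.07 log2 passed narrowly (edgeR, adjusted p = 0.0472) and was lost in 10 of 16 alternatives, including the fits without WT Ctrl replicate 1 or 2 or any of the 3 cKO Ctrl libraries. The background was 1.38% of genes with more and 0.986% with less RNA in cKO cells. With scaling by library totals alone the all-gene split turned from 165 higher and 118 lower to 140 higher and 257 lower. With Dex, the 1 member that passed was Nfkbiz, at 39.2, 36.2 and 30.9 CPM in cKO and 52.7, 52.3 and 50.5 CPM in WT libraries. All cKO libraries were lower, with a change of -0.55 ± 0.10 log2 (edgeR, adjusted p = 0.00249; 0.122 in the fit of all 24 libraries), against 3.63% of genes higher and 3.28% lower. The labels give the 2 genotypes different replicate numbers and do not say whether they were cultured side by side, so genotype and culture cannot be told apart.

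At day 9 most of the 10 genes differed between treated and Ctrl cells, and so did most of all genes tested. The 3 treated groups were each compared with the same 3 Ctrl libraries, so these comparisons share their controls. With Dex, 5 members rose (Rela, Relb, Nfkbia, Nfkbiz and Tnfaip3) and 3 fell (Nfkb2, Rel and Nfkbib), against 28.2% and 27.4% of the 12320 genes tested. With IL27, 3 rose (Rela, Relb and Tnfaip3) and 5 fell (Nfkb1, Nfkb2, Rel, Nfkbib and Nfkbiz), against 29.3% and 28.1%. With Dex+IL27, 4 rose (Rela, Relb, Nfkbia and Tnfaip3) and 4 fell (Nfkb1, Nfkb2, Rel and Nfkbib), against 34.3% and 32.6%. In each of these comparisons 8 of 10 members passed.

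The members' median change was 0.27 log2 with Dex, -0.24 with IL27 and -0.01 with Dex+IL27, beside 0.03, 0.03 and 0.05 over all genes. Fewer cells of a kind and less RNA per cell cannot be told apart in bulk libraries of this type. Scaling by library totals only moved the median of all genes with Dex+IL27 from 0.05 to -0.07 log2. Rn45s, the ribosomal RNA precursor, took 8.95% to 9.25% of counts in Ctrl libraries and 13.8% to 16.4% in treated ones. With Rn45s left out, the member counts of these 3 comparisons were again 8 each.

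Among the subunits, Rela and Relb stood higher in all 3 treated groups. Rela, the strong transactivator of the canonical dimer, was at 51.4, 45.4 and 50.6 CPM in Ctrl, 74.3, 61.8 and 64.9 with Dex, 72.3, 61.8 and 69.8 with IL27, and 85.9, 69.2 and 86.1 with both. Every treated library was above every Ctrl library, and the treated groups overlapped each other. The changes were 0.42 ± 0.10, 0.43 ± 0.10 and 0.70 ± 0.10 log2 (edgeR, adjusted p = 0.00336, 0.00257 and 2.83e-05). Relb, the main partner of p52 in the non-canonical pathway, was at 34.9, 38.8 and 35.9 CPM in Ctrl. It was at 71.6, 74.6 and 66.4 CPM with Dex, 60.9, 68.6 and 58.4 with IL27, and 58.1, 75.8 and 66.4 with both. Again no treated library reached down to the Ctrl range, and the 3 treated groups overlapped. The rises were 0.93 ± 0.10, 0.74 ± 0.10 and 0.86 ± 0.10 log2 (edgeR, adjusted p = 1.94e-06, 1.61e-05 and 2.22e-06).

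Nfkb2 and Rel moved the other way. Nfkb2 was at 171, 170.2 and 175 CPM in Ctrl, 112, 126 and 114 with Dex, 103, 134 and 126 with IL27, and 84.9, 90.1 and 95.01 with both. No treated library overlapped Ctrl, and the Dex+IL27 libraries lay below all others. The changes against Ctrl were -0.58 ± 0.09, -0.54 ± 0.09 and -0.95 ± 0.09 log2 (edgeR, adjusted p = 5.45e-05, 9.12e-05 and 2.16e-07). Rel was at 32.8, 29.7 and 34.2 CPM in Ctrl, 22.8, 26.5 and 28.1 with Dex, 20.4, 21.8 and 28.5 with IL27, and 26.3, 26.2 and 26.5 with both. All treated libraries were below the lowest Ctrl library, by a small margin in 2 of them. Its falls were -0.35 ± 0.12, -0.49 ± 0.12 and -0.31 ± 0.12 log2 (edgeR, adjusted p = 0.0236, 0.00306 and 0.0366). The Dex call of Rel was lost without Ctrl replicate 3 or Dex replicate 1, and the Dex+IL27 call without Ctrl replicate 1 or 3 or any 1 Dex+IL27 library, with adjusted p between 0.068 and 0.112.

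Nfkb1, the gene of p105 and p50, separated the agents. It was at 87.6, 93.5 and 90.5 CPM in Ctrl and 89.1, 101 and 91.2 CPM with Dex, overlapping ranges. The change was 0.02 ± 0.07 log2, with a 95% interval from -0.14 to 0.18. With IL27 it was at 56.4, 61.9 and 63.8 CPM and with both at 54.8, 57.0 and 57.3 CPM. All 6 libraries with IL27 were below all 6 without it. The changes were -0.61 ± 0.07 and -0.70 ± 0.07 log2 against Ctrl (edgeR, adjusted p = 5.02e-06 and 7.73e-07) and -0.72 ± 0.07 for Dex+IL27 against Dex (1.14e-05).

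The inhibitors also split. Nfkbia, the gene of IkBα and the fast feedback inhibitor, was at 211, 188 and 214 CPM in Ctrl and 221, 212 and 195 CPM with IL27, overlapping ranges. It was at 304, 349 and 312 CPM with Dex and 286, 292 and 277 CPM with both. All 6 libraries with Dex were above all 6 without it. The rises were 0.63 ± 0.07 and 0.47 ± 0.07 log2 against Ctrl (edgeR, adjusted p = 3.57e-06 and 3.6e-05), and 0.47 ± 0.07 for Dex+IL27 against IL27 (0.000318). With IL27 alone the 95% interval ran from -0.15 to 0.15 log2.

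Tnfaip3 rose in all 3 treated groups. It was at 49.5, 46.3 and 62.3 CPM in Ctrl, 85.4, 97.8 and 79.8 with Dex, 114, 126 and 120.2 with IL27, and 148, 134 and 130.4 with both. The 4 groups did not overlap, in that order. The changes were 0.71 ± 0.11, 1.15 ± 0.11 and 1.37 ± 0.11 log2 against Ctrl (edgeR, adjusted p = 5.29e-05, 4.43e-07 and 3.1e-08). The step from Dex to Dex+IL27 was 0.66 ± 0.10 log2 (0.00032), while the step from IL27 to Dex+IL27 did not pass (0.22 ± 0.10; 0.133).

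Nfkbib fell in all 3 treated groups. It was at 105, 109.7 and 112 CPM in Ctrl, 62.4, 73.2 and 78.9 with Dex, 59.8, 89.9 and 76.7 with IL27, and 54.6, 59.7 and 54.9 with both. No treated library overlapped Ctrl, and IL27 replicate 1 was the lowest of its group. The falls were -0.64 ± 0.12, -0.57 ± 0.12 and -0.96 ± 0.12 log2 (edgeR, adjusted p = 0.000354, 0.000825 and 4.53e-06).

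Nfkbiz gave opposite signs for the agents. It was at 22.7, 14.9 and 28.6 CPM in Ctrl, 33.8, 41.7 and 44.1 with Dex, 8.92, 18.3 and 16.4 with IL27, and 25.6, 30.3 and 19.4 with both. The Dex libraries were above the Ctrl range, and the IL27 libraries overlapped it. With Dex the change was 0.82 ± 0.24 log2 (edgeR, adjusted p = 0.0102; 0.0543 without Ctrl replicate 2). With IL27 it was -0.64 ± 0.25 (0.0426), a call lost in 8 alternatives, among them DESeq2 (0.0705) and the fits without Ctrl replicate 1 or 3 or IL27 replicate 1 or 3. Nfkbie, the gene of IkBε, did not pass against Ctrl in any treated group, with 26.5, 26.3 and 26.3 CPM in Ctrl and 21.4 to 33.7 CPM in the treated libraries.

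**Figure D3:**
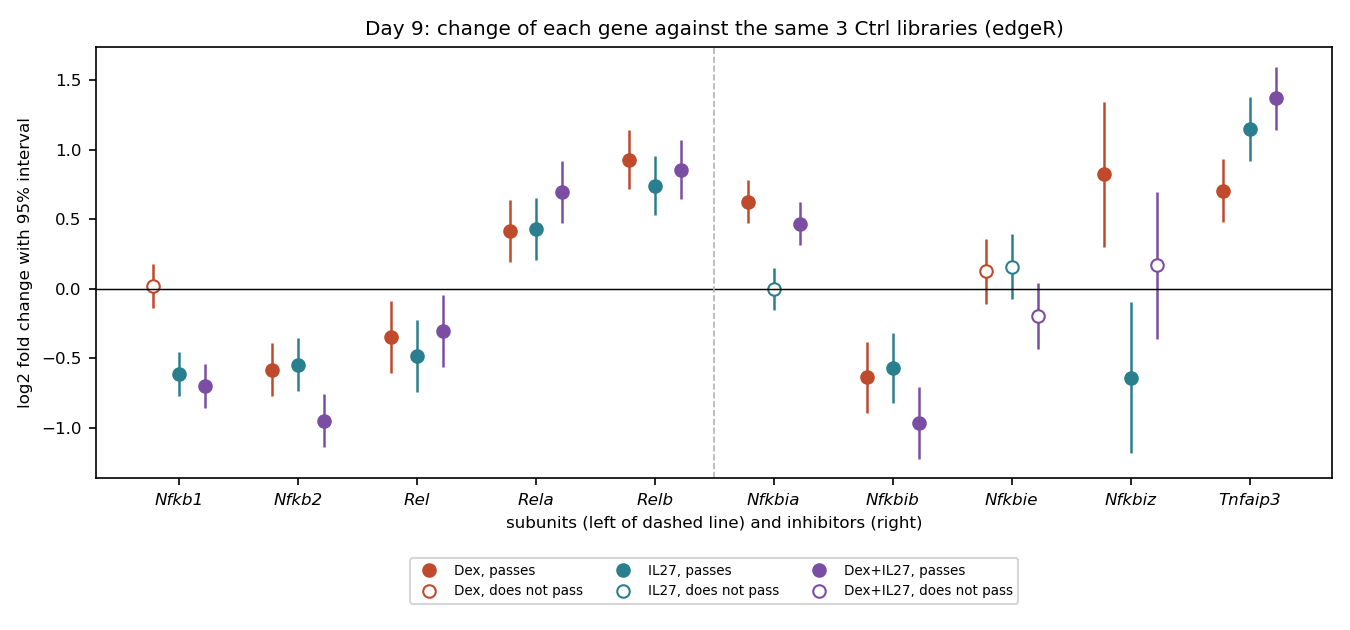
Log2 fold change of each gene at day 9 with Dex, IL27 or both, each against the same 3 Ctrl libraries, with 95% intervals from edgeR; filled points passed the test. Rela, Relb and Tnfaip3 lie above 0 and Nfkb2, Rel and Nfkbib below 0 under all 3 treatments, Nfkb1 is unfilled with Dex (0.02) and Nfkbia is unfilled with IL27 (-0.00).

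What each agent added to the other was read from the remaining pairs. IL27 on top of Dex raised Tnfaip3 and lowered Nfkb1, Nfkb2 and Nfkbie, that is 1 member up and 3 down against 14.9% and 17.1% of genes. The fall of Nfkb2 was -0.37 ± 0.09 log2 (edgeR, adjusted p = 0.00596). Nfkbie (-0.32 ± 0.11; 0.0393) had overlapping groups and lost its call in 6 alternatives, among them the fits without Dex replicate 2 or 3 or Dex+IL27 replicate 1 or 2. Rela, Nfkbib and Nfkbiz came close, with adjusted p of 0.0518, 0.0509 and 0.0533, and passed in 7, 9 and 7 alternatives. Scaling by library totals gave 1400 genes higher and 2647 lower in place of 1834 and 2108, and 1 member up and 6 down.

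Dex on top of IL27 raised Nfkbia and Nfkbiz and lowered Nfkb2, Nfkbib and Nfkbie, that is 2 up and 3 down against 11.7% and 14.3%. Nfkb2 fell by 0.40 ± 0.09 log2 (edgeR, adjusted p = 0.00407). Nfkbiz rose by 0.81 ± 0.25 (0.0292), Nfkbib changed by -0.40 ± 0.12 (0.0252) and Nfkbie by -0.35 ± 0.11 (0.0286). These 3 each lost the call in 5 or 6 alternatives, Nfkbiz without IL27 replicate 1 or 3 or Dex+IL27 replicate 1 or 2, and the other 2 without IL27 replicate 2 or 3 or Dex+IL27 replicate 1, Nfkbib also without Dex+IL27 replicate 3 and Nfkbie without Dex+IL27 replicate 2. By library totals the all-gene split was 1117 higher and 2212 lower in place of 1445 and 1767.

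A Dex by IL27 interaction asks whether the change with both differs from the sum of the single changes. It was positive for 1 member and negative for 3, against 13.7% and 14.7% of genes. For Relb the single changes summed to 1.67 log2 and the change with both was 0.86, an interaction of -0.81 ± 0.14 (edgeR, adjusted p = 0.000726) that passed in each alternative run. For Tnfaip3 the sum was 1.85 and the change with both 1.37, an interaction of -0.49 ± 0.15 (0.0244). For Rel the single falls summed to -0.84 and the change with both was -0.31, an interaction of 0.53 ± 0.17 (0.032). For Nfkbie it was -0.48 ± 0.16 (0.0326). The last 3 calls were each lost when certain single libraries were left out. For Tnfaip3 these were Ctrl replicates 1 and 2, Dex replicate 2 and Dex+IL27 replicate 3 (adjusted p up to 0.0747). For Rel they were Ctrl replicates 1 and 3, Dex replicate 1, IL27 replicates 1 and 2 and the 3 Dex+IL27 libraries (up to 0.0862). For Nfkbie they were the 3 Ctrl libraries, replicates 2 and 3 of Dex and of IL27, and Dex+IL27 replicates 1 and 2 (up to 0.0845). For Nfkb1, Nfkb2, Rela, Nfkbia, Nfkbib and Nfkbiz the interaction did not pass, with values between -0.16 and 0.24.

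The Dex change of WT cells was larger at day 9 than at day 3 for 4 members, by a test of the difference. Its fit held all 24 libraries, those of cKO cells included. The members were Relb (0.90 ± 0.11 log2), Tnfaip3 (0.87 ± 0.14), Nfkbia (0.64 ± 0.10) and Rela (0.48 ± 0.12). The edgeR adjusted p were 8.99e-07, 3.19e-05, 2.74e-05 and 0.00325. No member had a significantly lower change at day 9, and 20.4% of all genes had a higher and 19.2% a lower one. At day 3 none of these 4 had passed with Dex in WT cells. Nfkb2 fell on both days, and its difference between days did not pass (-0.25 ± 0.12; adjusted p = 0.102). The 2 Dex exposures also differ in length and in restimulation. In Ctrl, Dex and IL27 libraries of day 9, Tsc22d3 was at 17.5 to 22.6, 388 to 483 and 98.5 to 123 CPM. Nr3c1 was at 14.8 to 16.0, 31.7 to 33.1 and 18.1 to 19.1 CPM. Fkbp5 was at 34.1 to 37.0, 114 to 131 and 30.7 to 40.9 CPM, and Per1 at 20.7 to 25.4, 57.9 to 58.3 and 39.5 to 42.9. In WT cells of day 3 Tsc22d3 was at 53.4 to 64.9 without and 170.4 to 203 CPM with Dex. What links these levels to the members' changes was not tested.

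Within a library the opposite moves of single genes changed the make-up of the set, which does not depend on the scaling between libraries. Of the FPKM of the 5 subunits, Nfkb2 held 44.9% ± 0.042 in Ctrl cells of day 9 and 30.0% ± 1.2 with Dex, 33.8% ± 2.8 with IL27 and 26.0% ± 0.56 with both (SD, n = 3). Relb went from 13.2% ± 0.83 to 25.1% ± 0.76, 24.3% ± 1.9 and 26.7% ± 3.2, and Rela from 14.5% ± 0.89 to 19.3% ± 2.2, 21.5% ± 2.8 and 26.2% ± 3.3. Nfkb1 held 17.5% ± 0.65, 17.7% ± 0.67, 12.6% ± 0.28 and 12.1% ± 0.19 in the same order. Among the inhibitors Nfkbia held 60.3% ± 1.3 in Ctrl, 71.8% ± 1.4 with Dex, 61.6% ± 4.2 with IL27 and 70.1% ± 0.17 with both. Nfkbib held 26.2% ± 1.6, 13.0% ± 1.3, 17.95% ± 3.0 and 11.3% ± 0.42 in the same order. Tnfaip3 went from 5.60% ± 0.61 to 7.07% ± 0.51, 12.8% ± 0.45 and 12.2% ± 0.71. With counts in place of FPKM, Nfkbia held 49.3%, 58.5%, 46.7% and 54.1%, so its share with IL27 was then below that in Ctrl. At day 3 the Nfkb2 share was 43.0% ± 0.65 in WT Ctrl and 39.0% ± 1.2 in WT Dex, and 41.8% ± 1.9 and 41.8% ± 1.5 in cKO cells without and with Dex.

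The summed FPKM of the inhibitors over that of the subunits was 1.71 ± 0.080 in Ctrl cells of day 9, 2.21 ± 0.12 with Dex, 1.84 ± 0.10 with IL27 and 2.28 ± 0.13 with both. At day 3 the 4 group means lay between 1.58 and 1.72. Nfkbia made up most of the inhibitor sum in every group, and RNA shares say nothing of protein.

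**Figure D4:**
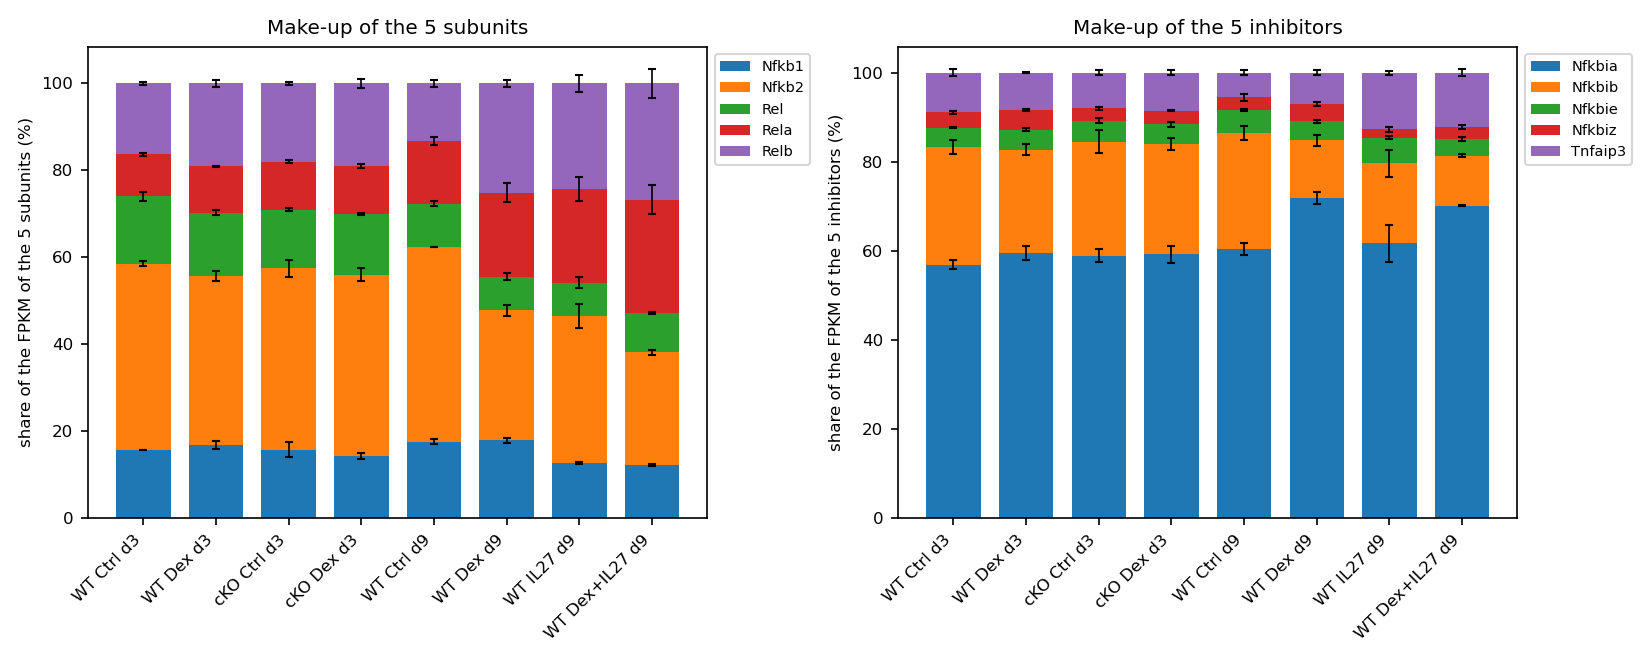
Mean share (%) of each gene in the summed FPKM of the 5 subunits (left) and of the 5 inhibitors (right) in the 8 groups of 3 libraries; error bars at each boundary are the SD of the share below it. The Nfkb2 share falls from 44.9% in Ctrl cells of day 9 to 26.0% with Dex+IL27, and the Nfkbib share from 26.2% to 11.3%.

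Nfkb2 and Nfkbib followed nearly the same pattern over the 8 groups. The root mean square difference of their centred log2 group means was 0.028, and the next closest pair of members, Relb and Nfkbia, was at 0.21. The ratio of Nfkb2 to Nfkbib counts stayed between 1.41 and 1.81 over the 24 libraries. The pair lies on different chromosomes, the printed Nfkb2 stretch has kB matches and that of Nfkbib has none. The reason for the likeness of their patterns was not tested. In the GENCODE M21 annotation some exon bases of both overlap genes of the other strand, 6.52% of Nfkb2 with Psd and 11.6% with a non-coding transcript, and 14.5% of Nfkbib with Ccer2 and 1.94% with Sirt2. The library kit does not mark strand, so reads in these stretches cannot be assigned to 1 gene, and their part in the values was not tested. No other member had such an overlap.

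Outside the set, over 12656 genes and 8 groups, the closest patterns by the same measure were Dnmt3a and Cmss1 for both Nfkb2 (0.061 and 0.087) and Nfkbib (0.063 and 0.076). They were Gas2l3 and Aurkb for Nfkb1 (0.065 and 0.084), Sbf1 and Rpl41 for Rela (0.036 and 0.041), Mfsd4 and Zfp420 for Relb (0.077 and 0.080), and Pkp4 and Hist1h2ac for Rel (0.14 and 0.16). For the inhibitors they were Gdap10 and Dennd6b for Nfkbia (0.079 and 0.083), Pik3r2 and Mzt2 for Nfkbie (0.045 and 0.073), Ttc30b and Map3k8 for Nfkbiz (0.16 and 0.17), and Lrrc61 and Ikzf3 for Tnfaip3 (0.094 and 0.11).

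The steps upstream of the subunits were read from a list of 15 genes from the T cell receptor to IKK, all tested. Malt1, the paracaspase that acts with BCL10, was the 1 gene of this list that rose with Dex in WT cells at day 3, from 42.8 to 67.5 mean CPM (0.67 ± 0.12 log2). None fell, and 4.93% of all genes rose and 4.5% fell in that comparison. At day 9 Malt1 rose from 27.9 to 149 mean CPM with Dex (2.39 ± 0.13), to 64.8 with IL27 (1.18 ± 0.13) and to 184 with both (2.71 ± 0.13). Of the 15 genes 4 rose and 1 fell with Dex at day 9, 4 rose and 0 fell with IL27, and 7 rose and 1 fell with both. Of all genes, 28.2%, 29.3% and 34.3% rose and 27.4%, 28.1% and 32.6% fell in these comparisons, so the rises with Dex or IL27 alone were no more frequent than that.

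Rnf31 (0.85, 0.76 and 1.12 log2), the catalytic subunit of the linear ubiquitin ligase LUBAC, and Prkcq (0.46, 0.79 and 1.17), the kinase PKCθ, also rose in all 3 treated groups. Of the catalytic IKK subunit genes, Ikbkb gave 0.11 and 0.05 log2 with the single agents, not passing, and Chuk fell by 0.38 with Dex. The list's median was 0.11 log2 with Dex, 0.04 with IL27 and 0.19 with both.

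The other IkB family members and feedback regulators, 13 of 14 tested, gave 2 rises and no fall with Dex in WT cells at day 3. The rises were Tnip2 (0.59 ± 0.11 log2) and Tnip1 (0.43 ± 0.09), both encoding partners of A20. Beside these, 4.93% of all genes rose and 4.5% fell. At day 9 the counts were 5 up and 3 down with Dex, 7 up and 3 down with IL27, and 7 up and 3 down with both, beside 28.2% up and 27.4% down, 29.3% and 28.1%, and 34.3% and 32.6% of all genes. N4bp1 (1.58, 0.78 and 1.77 log2), a MALT1 substrate that restrains NF-kB, Tnip2 (1.28, 0.71 and 1.34), Bcl3 (1.03, 0.98 and 1.198), a nuclear IkB that binds p50 and p52, and Tnip1 (0.38, 0.55 and 0.81) rose in the 3 treated groups. Zc3h12a, the RNase Regnase-1, fell in all 3 (-0.74, -0.61 and -0.72 log2), as did Commd1 (-0.54, -0.47 and -0.90), whose product promotes the turnover of RelA.

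In the non-canonical pathway, 10 of 11 listed genes were tested. At day 3 Dex raised 2 in WT cells, the receptors Tnfrsf18 (0.31 ± 0.05) and Tnfrsf4 (0.24 ± 0.05), and lowered 3, among them Birc3 (-0.25 ± 0.07) and Tnfrsf9 (-0.23 ± 0.07). Beside these, 4.93% of all genes rose and 4.5% fell. At day 9 the counts were 5 up and 0 down with Dex, 5 and 0 with IL27, and 7 and 2 with both. The shares of all genes that rose were 28.2%, 29.3% and 34.3%, and those that fell 27.4%, 28.1% and 32.6%. Birc2, the ubiquitin ligase cIAP1, rose by 0.98, 1.24 and 1.44 log2 and Tnfrsf18, the receptor GITR, by 1.44, 0.93 and 0.79. Map3k14, the kinase NIK that starts p100 processing, rose with both (0.75 ± 0.11).

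Of 26 genes listed as NF-kB targets in T cells, all tested, 3 rose and 7 fell with Dex in WT cells at day 3. In that comparison 4.93% of all genes rose and 4.5% fell. At day 9, 5 rose and 13 fell with Dex, 5 rose and 15 fell with IL27, and 4 rose and 15 fell with both. Over all genes 28.2%, 29.3% and 34.3% rose and 27.4%, 28.1% and 32.6% fell. The list medians were -0.20, -0.27, -0.49 and -0.73 log2 in that order, beside 0.01, 0.03, 0.03 and 0.05 over all genes. They did not move when genes with 3 counts or fewer in a group were set to a floor of 3 counts (Csf2, and Il2 with both agents). At most 2 of the 26 genes were changed by this floor, which could hardly move a median, so the check decides little. The largest falls were in cytokine genes. Lta, the gene of lymphotoxin alpha, fell from 308 to 52.3 mean CPM with Dex (-2.59 ± 0.18), to 74.2 with IL27 (-2.09 ± 0.17) and to 21.9 with both (-3.83 ± 0.19). Tnf fell as well (-2.62, -1.70 and -3.89 log2). Ifng fell from 989 to 15.3 mean CPM with Dex and to 12.4 with both, and Ccl3 from 591 to 40.0 with Dex.

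Ccl5 went the other way with IL27, from 10.1 to 53.1 mean CPM (2.36 ± 0.25) and to 124 with both (3.60 ± 0.26). These genes have other regulators than NF-kB, and their levels do not measure NF-kB activity. With Dex in WT cells at day 3, Ifng (-5.22 ± 0.29), Lta (-1.05 ± 0.08), Ccl3 (-1.40 ± 0.18) and Ltb (-0.77 ± 0.12) fell, and these 4 also passed in the genotype by Dex interaction. No gene of these lists passed with Dex in cKO cells. The lists were drawn up with earlier results of these data known, and their counts are descriptions.

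**Figure D5:**
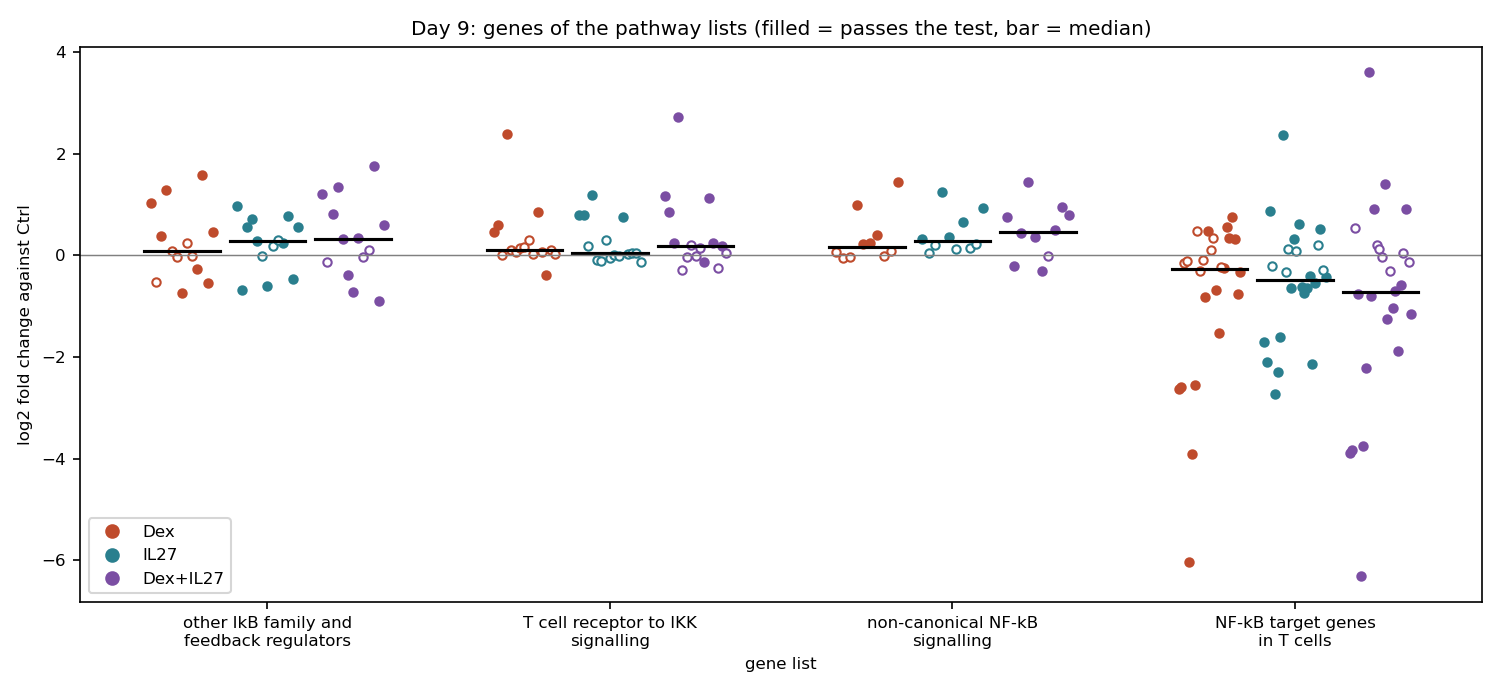
Log2 fold change at day 9 against Ctrl of the genes in 4 lists around the NF-kB set, for Dex, IL27 and both; filled points passed the test and the bar is the median of the tested genes of the list. Il2 and Csf2 are not drawn, being at or near 0 counts in treated groups. The target list spreads from rises of Ccl5 (3.60 with both) to falls of Ifng (-6.32 with both).

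Markers of other cell types were set beside these changes. Itgam was at 0.190 mean CPM in Ctrl cells of day 9, 2.06 with Dex and 9.76 with both, and Eomes at 9.65, 1.39 and 0.119. Other myeloid markers went against Itgam. Cd14, Fcer1g and Lyz2 had their highest group means in Ctrl cells of day 9, at 0.893, 0.628 and 0.0354 CPM. The summed 8 myeloid and dendritic cell markers were at 5.98 to 8.14 CPM in Ctrl libraries and at 13.7 to 24.4 CPM in treated ones, and the summed 4 NK cell markers at 7.80 to 11.6 and at 0.0629 to 2.49 CPM. The NK list, nearly all of it Eomes, was also lower with Dex in WT cells at day 3 (2.25 to 3.64 against 10.1 to 12.9 CPM). The summed 3 CD4 T cell markers were at 6.26 to 7.96 CPM in Ctrl libraries of day 9 and at 12.7 to 21.0 CPM in treated ones. The part of these markers in the members' changes was not tested. Replicate 6 of cKO Dex differed more from its group's other libraries (chi-square per degree of freedom of the counts 14.2 and 10.6) than those did from each other (4.42). Without it Nfkbiz still passed in cKO against WT with Dex (-0.46 ± 0.11 log2), and no member passed with Dex in cKO cells. IL27 replicate 1 stood apart from the other 2 IL27 libraries on the leading component of day 9 (28.9 against 1.00 and 9.07). Without it 3 members rose and 4 fell with IL27, Nfkbiz being lost, and Dex+IL27 against IL27 gave 2 up and 3 down, with Rela passing in place of Nfkbiz. With all libraries 29.3% of all genes rose and 28.1% fell with IL27, and 11.7% and 14.3% in Dex+IL27 against IL27. The shares without that library are not given here.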

How the data were processed

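RNA of 24 libraries (modified SMART-Seq2, Nextera XT, paired 38 nt reads) was analysed from gene tables of 23366 symbols. The estimated counts were deposited by the authors as unnormalized RSEM estimates, and the FPKM values were deposited as TMM-normalized, as the authors named them. TopHat, RSEM, DESeq and mm9 are named, without versions or roles, per the submitters' processing notes. Reads carry no molecular identifiers. Groups come from the labels, which do not say whether libraries of a group were separate animals or cultures, so the tests weigh differences only against the spread of these libraries, which may be technical.

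Counts were rounded and tested with edgeR 4.0.16 (R 4.3.3; TMM, filterByExpr with minimum count 10 and minimum total 15, prior count 0.125, quasi-likelihood F-test, two-sided), fitting the 12 libraries of a day together (11967 and 12320 genes tested) and all 24 for the day 9 minus day 3 difference (12666). Benjamini-Hochberg adjustment ran over all genes tested. Alternatives used limma 3.58.1 on log2(FPKM + 1) or log2(FPKM + 0.1) with or without a filter at 1 FPKM, DESeq2 1.42.0, other scalings, other sets of libraries, a replicate block and fits that dropped 1 library at a time.

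Named were all 10 members, 4 receptor checks, up to 4 passing genes with the lowest p per list and comparison, 2 nearest genes per member, and markers reaching 1 CPM; a few list genes are not reported here. Ikbkb, Chuk and some values of genes named in another comparison were chosen after their values were seen. The members and lists were chosen with earlier results of these data known. An mm9 annotation was not used here. Figures used matplotlib 3.10.9 in Python 3.11.15.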

Additional observations from a re-analysis of the deposited data

Results flagged for a closer look

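A test of the difference between 2 contrasts passed for 8 results (edgeR, 3 libraries per group). The Dex change depended on IL27 at day 9 for Rel (0.53 log2), Relb (-0.81), Nfkbie (-0.48) and Tnfaip3 (-0.49). Relb kept this call in each alternative run, and the other 3 lost it when certain single libraries were left out. Of the 10 members 1 was positive and 3 were negative here, against 13.7% and 14.7% of all genes tested. The Dex change of WT cells was higher at day 9 than at day 3 for Rela (0.48 log2), Relb (0.90), Nfkbia (0.64) and Tnfaip3 (0.87), and these 4 passed with each library left out in turn. No member had a significantly lower change, and among all genes tested 20.4% had a higher and 19.2% a lower one. Length of exposure, rest, restimulation and the letter that opens the sample titles all run with the day and cannot be told apart.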

How the results depend on the processing

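Of 120 results (10 members in 12 comparisons) 45 passed, and 30 of these passed under all their alternatives. Of 803 alternatives to the 45, 82 lost the call and 0 reversed, and of 1367 alternatives to the others 49 passed. The count of members passing was 2 with Dex in WT cells at day 3. It became 4 with no low-count filter or with only the groups compared, and 1 with all 24 libraries or in unfiltered limma. For cKO against WT without Dex it was 1, becoming 2 by library totals, with no filter or in DESeq2, and 0 in the 3 limma fits, with all 24 libraries or only the groups compared. For cKO against WT with Dex it went from 1 to 0 with all 24 libraries. For the genotype by Dex interaction it went from 0 to 1 with no filter. For Dex+IL27 against Dex it went from 4 to 7 by library totals. For Dex+IL27 against IL27 it went from 5 to 3 in limma without a filter and with only the groups compared, for Dex by IL27 from 4 to 1 in limma without a filter, and for the day 9 minus day 3 difference from 4 to 7 with no filter. The cause was not tested. Most of these member counts stand without the all-gene share of the same fit, so they show only how the calls move.

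With 1 library left out, these counts ranged from 0 to 2 (Dex in WT, day 3), 0 to 1 (cKO against WT without Dex), 7 to 8 (each treated group against Ctrl), 3 to 6 (Dex+IL27 against Dex), 2 to 5 (against IL27), 1 to 3 (Dex by IL27) and 4 to 5 (day 9 minus day 3). Counts over all genes moved by over 1.5 times at day 3 only: 1129 for Dex in WT cells became 691 and 722 without WT Dex replicate 3 or WT Ctrl replicate 2, and 0 in cKO cells became 26 with no filter and 1 in 3 other fits. The interaction's 353 ranged from 185 (limma without a filter) to 765 (no filter), with 560 in DESeq2. For cKO against WT the 283 without Dex ranged from 63 to 793 and the 826 with Dex fell to 484 at the lowest.

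Same-numbered libraries showed no clear shared deviation, and the numbers were not taken to pair the libraries. At day 3 their r ran from -0.028 to -0.011 in WT and -0.008 to 0.084 in cKO. Different numbers gave -0.005 to 0.019 and -0.086 to 0.034. At day 9 r was over 0.1 in 1 of 18 same-number pairs and in 6 of 36 others, with highest values of 0.198 and 0.144. The highest r in cKO and at day 9 thus belonged to same-number pairs. With a replicate block 3 members passed with Dex in WT cells at day 3, 0 in cKO cells and 0 in the interaction. At day 9 the block gave 8 for each treated group against Ctrl, 6 against Dex, 6 against IL27, 4 for Dex by IL27 and 5 for the day 9 minus day 3 difference. In the main fits 28.2% of all genes were higher and 27.4% lower with Dex. These shares were 29.3% and 28.1% with IL27 and 34.3% and 32.6% with both. They were 14.9% and 17.1% against Dex and 11.7% and 14.3% against IL27. For Dex by IL27 they were 13.7% and 14.7%, and for the day difference 20.4% and 19.2%. Shares with the block are not given here, so its counts are not read against a background. No paired analysis was possible because genotypes share no replicate number in cKO against WT.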
